A study of Mus musculus with 2 samples.

Results

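A small set of sorted natural killer (NK) cells carried transcripts of platelets, and this set was compared with NK cells of the same library that carried none. A barcode was a member when it held at least 500 genes, at most 10% mitochondrial UMIs (unique molecular identifiers, 1 per captured RNA molecule), at least 3 UMIs over the NK receptor genes Ncr1, Klrb1c and Klrk1, and a UMI of at least 3 of the 6 genes Pf4, Ppbp, Gp9, Gng11, Myl9 and Clu. There were 130 members among 20310 NK cells chosen by the same quality and receptor limits, out of 22400 deposited barcodes. The NK knockout library held 38 members and the floxed control library held 92. NK cells with 0 UMIs over the 6 genes served for comparison, 9202 in the knockout library and 10197 in the control library. A further 357 knockout and 424 control NK cells held 1 or 2 of the 6 genes.

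Both groups were C57BL/6 mice with a floxed Ptger3 gene, which encodes EP3, a receptor of prostaglandin E2. The knockout mice (NKp46CreEP3F/F) also carried Cre, named in the genotype for NKp46, the product of Ncr1, and the control mice (EP3F/F) carried none. Spleen cells were sorted by the study on CD27 and CD11b, the cells of 2 mice per genotype were pooled, and each genotype gave 1 droplet library, which reads the 3' ends of transcripts. The libraries held 42795121 UMIs in the knockout and 69853026 in the control, with a median of 3745 and 5641 UMIs per barcode. With 1 library per genotype, and with members picked by UMIs of the very cells compared, no test is given. All intervals are exact 95% intervals for counting error only, binomial for shares and for ratios, Poisson for levels, and hold no spread between mice. Where a share is 0, the limit given is not that interval but a rule of 3 counts of the total, which lies below the upper end of the exact interval.

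Platelets are fragments shed by megakaryocytes. They have no nucleus, but they keep a stock of megakaryocyte RNA that is rich in granule proteins, adhesion receptors and cytoskeletal genes. Platelets adhere through the GPIb-IX-V complex, which binds von Willebrand factor, and through the integrin of the Itga2b and Itgb3 products, which binds fibrinogen, and they can bind to leukocytes through P-selectin and integrins. NK cells are cytotoxic lymphocytes that kill through granzymes and perforin under the control of activating and inhibitory receptors.

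The members had the NK genes. Gzma and Nkg7 had a UMI in all 38 knockout and all 92 control members, and Klrd1, the CD94 receptor, in 37 of 38 and 90 of 92. Klrd1 was found in 98.7% of knockout and 99.1% of control NK cells with 0 UMIs. Prf1, perforin, was found in 34 of 38 knockout and 87 of 92 control members, and Eomes, a transcription factor of NK cells, in 27 and 72 (71.1% and 78.3%). The shares in NK cells with 0 UMIs were 87.2% and 93.1% for Prf1 and 62.9% and 81.1% for Eomes. Cd27 and Itgam, the genes of the sort markers CD27 and CD11b, had a UMI in 20 and 14 knockout members and in 51 and 48 control members. The shares in members were near those in other NK cells for Klrd1, Prf1 and Eomes, and the receptor genes Ncr1, Klrb1c and Klrk1 themselves were part of the rule. Median depth was 4232 UMIs in knockout members against 3875 in the NK cells with 0 UMIs, and 6345 in control members against 5833. Members held a median of 1580 genes against 1532 in the knockout and 2200 against 2116 in the control, and the median mitochondrial share was 4.09% against 3.90% and 3.39% against 3.47%.

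Pf4 and Ppbp, chemokine genes of platelet granules, are neighbours in the mouse genome. In the GENCODE annotation of GRCm38, Ppbp lies on the plus strand of chr5:90768518-90770063 and Pf4 on the plus strand of chr5:90772435-90773383, with 2371 bases between them. The labels name the build GRCm39 for the deposited counts, so these positions come from the annotation and not from the files. The promoter windows of both genes, and of 2 platelet receptor genes that the rule did not use, Clec1b and Itga2b, are shown as a description. How often Clec1b and Itga2b lay in the same cells as each other, or as Pf4 and Ppbp, was not counted. Each window runs from 250 bases before to 50 bases after the start of the gene in RefSeq on GRCm38.p6, in the direction of transcription, with matches to the motif in capitals where present. The motif was GATA with A or T before it and A or G after it, on either strand, the form bound by GATA1, a transcription factor that megakaryocytes need.
Pf4 (chr5:90772185-90772484, plus strand): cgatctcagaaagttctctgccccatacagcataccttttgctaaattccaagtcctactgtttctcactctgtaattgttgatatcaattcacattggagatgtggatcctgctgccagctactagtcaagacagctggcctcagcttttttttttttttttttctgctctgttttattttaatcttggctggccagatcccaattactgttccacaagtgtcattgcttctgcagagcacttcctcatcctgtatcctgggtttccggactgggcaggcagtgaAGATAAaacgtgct
Ppbp (chr5:90768268-90768567, plus strand): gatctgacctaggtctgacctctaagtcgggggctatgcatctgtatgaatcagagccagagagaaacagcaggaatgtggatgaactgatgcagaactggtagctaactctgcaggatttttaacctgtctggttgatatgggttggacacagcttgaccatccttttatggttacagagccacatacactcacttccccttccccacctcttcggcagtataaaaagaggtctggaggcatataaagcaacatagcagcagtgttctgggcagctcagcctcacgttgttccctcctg
Clec1b (chr6:129397047-129397346, plus strand): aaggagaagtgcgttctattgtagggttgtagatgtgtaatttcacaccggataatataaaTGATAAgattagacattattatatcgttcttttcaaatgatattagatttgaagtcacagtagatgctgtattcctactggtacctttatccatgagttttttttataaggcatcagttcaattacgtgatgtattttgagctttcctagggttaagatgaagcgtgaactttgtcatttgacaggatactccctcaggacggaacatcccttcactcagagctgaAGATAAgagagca
Itga2b (chr11:102469834-102470133, minus strand): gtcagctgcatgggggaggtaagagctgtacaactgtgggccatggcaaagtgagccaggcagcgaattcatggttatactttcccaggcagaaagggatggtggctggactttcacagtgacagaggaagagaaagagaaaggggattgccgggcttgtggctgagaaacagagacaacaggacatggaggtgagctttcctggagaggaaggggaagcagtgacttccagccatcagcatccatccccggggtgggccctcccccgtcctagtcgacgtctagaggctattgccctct
The Pf4 window held 1 such match, the Clec1b window 2, and the Ppbp and Itga2b windows 0. Of 50 platelet genes looked up, 39 had a window, and 10 of these held a match (25.6%), against 8166 of 27025 first windows of all genes (30.2%). A match is a description of letters, and windows without one say nothing of the factor.

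The 6 genes of the rule describe how members were chosen. Pf4, which encodes platelet factor 4, had 137 UMIs in knockout members, spread over 35 of 38 cells, and 223 UMIs in control members, spread over 78 of 92. Ppbp, the precursor of the chemokine CXCL7, had 60 UMIs in 23 knockout members and 145 in 60 control members. Gp9, a subunit of the GPIb-IX-V complex, had 35 UMIs in 14 knockout and 60 in 42 control members. The G protein subunit gene Gng11 was found in all 38 knockout members, with 88 UMIs, and in 75 control members, with 145. Myl9, a myosin light chain gene, gave 27 UMIs in 17 knockout and 68 in 56 control members, and Clu, which encodes the secreted chaperone clusterin, gave 18 in 13 and 47 in 35. Pairs of these genes, which the rule itself used, came together in NK cells at differing rates. Among NK cells with a UMI of Ppbp, Pf4 was present in 54.0% of 50 knockout and 64.0% of 100 control cells. Pf4 was present in 1.73% and 1.32% of NK cells without Ppbp. Among NK cells with Gng11, Clu was present in 6.10% of 246 knockout and 10.6% of 348 control cells. Without Gng11, Clu was present in 0.0962% and 0.232%. These shares are a description of the rule genes.

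Few NK cells held many of the rule genes. In the knockout library 268, 89, 24, 5, 6 and 3 NK cells held 1, 2, 3, 4, 5 and 6 of the genes, and in the control library 341, 83, 47, 27, 11 and 7. Just inside the limit, cells with 3 genes carried a median of 4 UMIs over the 6 genes in both libraries, with ranges of 3 to 10 in the knockout and 3 to 11 in the control. Just outside it, cells with 2 genes carried medians of 2 and 3 UMIs and ranges of 2 to 8 and 2 to 6. No gap separated members from the rest.

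Platelet content differed widely from member to member. Over the 6 genes, the lowest member held 3 UMIs in each library, the median was 5 in both, and the highest was 35 in the knockout and 50 in the control. The control member with 50 UMIs also held 43 UMIs over 11 platelet markers that the rule did not use, among them Itga2b, Itgb3, Gp1ba, Gp1bb, Gp5, Gp6, Treml1, Tubb1, Clec1b and Alox12. It held 21 UMIs of the NK receptor genes and 7251 UMIs in all. The knockout member with the most of the 11 markers held 16 UMIs of them, 23 of the rule genes, 13 of the NK receptor genes and 6450 in all. Neither of these cells was the deepest member, since member depth ranged up to 8087 UMIs in the knockout and 18575 in the control. The knockout cell was still above the upper quartile of member depth, 4767.5 UMIs. The control member with the next most rule gene UMIs, 46, held 11676 UMIs in all, above the control quartile of 8132. The part of depth in platelet content was not tested.

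**Figure D1:**
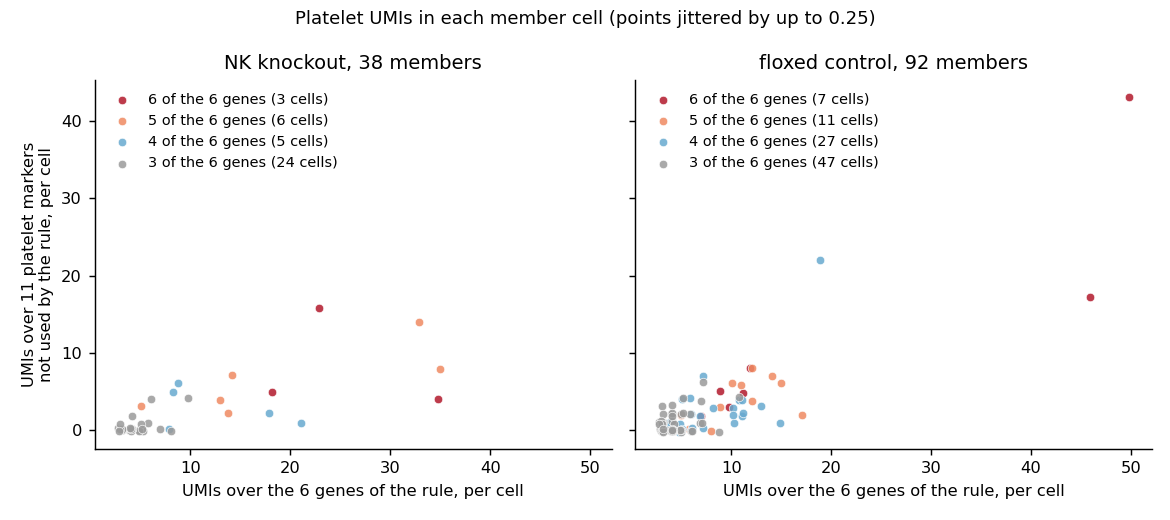
Each point is 1 member cell, with the UMIs over the 6 genes of the rule on the x axis and the UMIs over 11 platelet markers not used by the rule on the y axis, NK knockout left and floxed control right, coloured by how many of the 6 genes had a UMI. Most members sit at the lower left with a median of 5 rule gene UMIs, and 1 control cell stands far out at 50 and 43.

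Platelet genes that the rule did not use came with it. Any of the 11 markers was found in 19 of 38 knockout members (50%, interval 33.4 to 66.6%) and in 60 of 92 control members (65.2%, 54.6 to 74.9%). It was found in 56 of 357 knockout and 51 of 424 control NK cells with 1 or 2 rule genes, and in 3.64% and 3.15% of those with 0. Summed over the 11 markers, members held 553 UMIs per 1000000 UMIs (CPM) against 9.25 CPM in the knockout library, a log2 ratio of 5.90 (5.55 to 6.24), and 388 against 5.24 CPM in the control library, a log2 ratio of 6.21 (5.97 to 6.45). Barcodes with genes of T cells or of macrophages were counted for comparison, with NK cells and members not left out. Among barcodes with at least 3 UMIs of CD3 genes, 8.48% in the knockout and 5.37% in the control had a marker, at median depths of 4842 and 7262 UMIs. Among those with at least 3 UMIs of the C1q genes of macrophages, 14.4% and 15.4% had one, at 3657 and 5536 UMIs. The CD3 sets included 2 knockout members and 1 control member, and the C1q sets 1 and 1. The shares in members were above both, which is a description, since members were picked by platelet genes. After each cell was thinned to 2000 UMIs, Clec1b was still found in 15.8% of knockout and 7.69% of control members, against 0.155% and 0.0496% of NK cells with 0 UMIs.

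Across all genes, 5488 had a mean of at least 20 CPM over the 4 sums and are called measured here. A gene was called higher or lower in members when its log2 ratio was at least 0.58 in size, with the same sign, in both libraries. That held for 67 measured genes in the higher direction (1.22%) and 31 in the lower (0.565%). Requiring also that each library's interval exclude 0 left 39 higher (0.711%) and 1 lower (0.0182%). The median log2 ratio over all measured genes was -0.01 in both libraries. Precision differed with the UMIs summed over members, 162655 from 38 knockout cells and 634361 from 92 control cells. In these sums 1 UMI was worth 6.15 CPM in the knockout and 1.58 CPM in the control. Taken alone, the knockout library had 12.2% of measured genes past 0.58 upward, against 2.88% in the control library.

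Of the 67 genes called higher, 6 were the rule genes and 10 belonged to the 44 other genes of 3 platelet lists (granule, receptor and cytosol). Low genes could pass the 20 CPM limit through the members alone, so nothing is read from the 16 measured ones. Over all 44, a UMI was found in members of either library for 40 and in members of both for 35. The interval lay above 0 in both libraries for 26 of the 44 and below 0 in both for 0. Over the 5488 measured genes, 39 (0.711%) had both intervals above 0, but that count also needed a log2 ratio of at least 0.58. Genes below the 20 CPM limit, as in these lists, were not in it. The share by intervals alone over all genes was not counted, so the 26 is a description.

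Among receptors, Clec1b, which encodes the platelet receptor of podoplanin (CLEC-2), had 26 UMIs in 15 knockout members against 30 UMIs in 26 knockout NK cells with 0 rule UMIs. It had 56 UMIs in 28 control members against 23 UMIs in 23 such control cells. Its log2 ratios were 7.71 (6.90 to 8.52) in the knockout and 7.96 (7.24 to 8.73) in the control. Itga2b, the alpha subunit of the fibrinogen receptor, had log2 ratios of 7.61 and 7.56, from 17 UMIs in 9 knockout and 35 in 24 control members. Its partner gene Itgb3 came out at 2.57 in the knockout, from 3 UMIs in 2 members, and at 4.59 in the control, from 36 UMIs in 21 members. Itgb3 was also detected in 1.25% of knockout and 1.39% of control NK cells with 0 UMIs, where Itga2b was found in 0.217% and 0.186%.

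Treml1, a receptor stored in alpha granules, had 13 UMIs in 9 knockout and 35 in 20 control members, against 2 UMIs in each library's NK cells with 0 rule UMIs. Its log2 ratios were 10.62 (8.48 to 13.81) and 10.81 (8.85 to 13.91). Gp5, the GPV subunit of the complex that also holds the Gp9 product, gave 10.38 in the knockout and 8.58 in the control. The other subunits of that complex were seldom caught. Gp1ba was found in 1 knockout and 2 control members, against 2 and 1 of the NK cells with 0 rule UMIs. Gp1bb was found in 0 of 38 knockout and 5 control members, against 157 and 117 such NK cells (1.71% and 1.15%). By the rule of 3 counts, the 0 of 38 allows a share of up to 7.89%. The collagen receptor gene Gp6 was found in 1 knockout and 7 control members, and the ADP receptor gene P2ry12 in 4 and 4.

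Cd9, a tetraspanin, was different in kind, because NK cells carried it widely. It was present in 65.3% of knockout and 73.8% of control NK cells with 0 UMIs, and in 33 of 38 and 83 of 92 members. Its log2 ratio was 1.59 (1.33 to 1.83) in the knockout and 1.03 (0.86 to 1.19) in the control. Itga2, an integrin subunit that binds collagen, was also common in NK cells and had log2 ratios of -0.14 (-0.90 to 0.52) and -0.03 (-0.30 to 0.22).

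**Figure D2:**
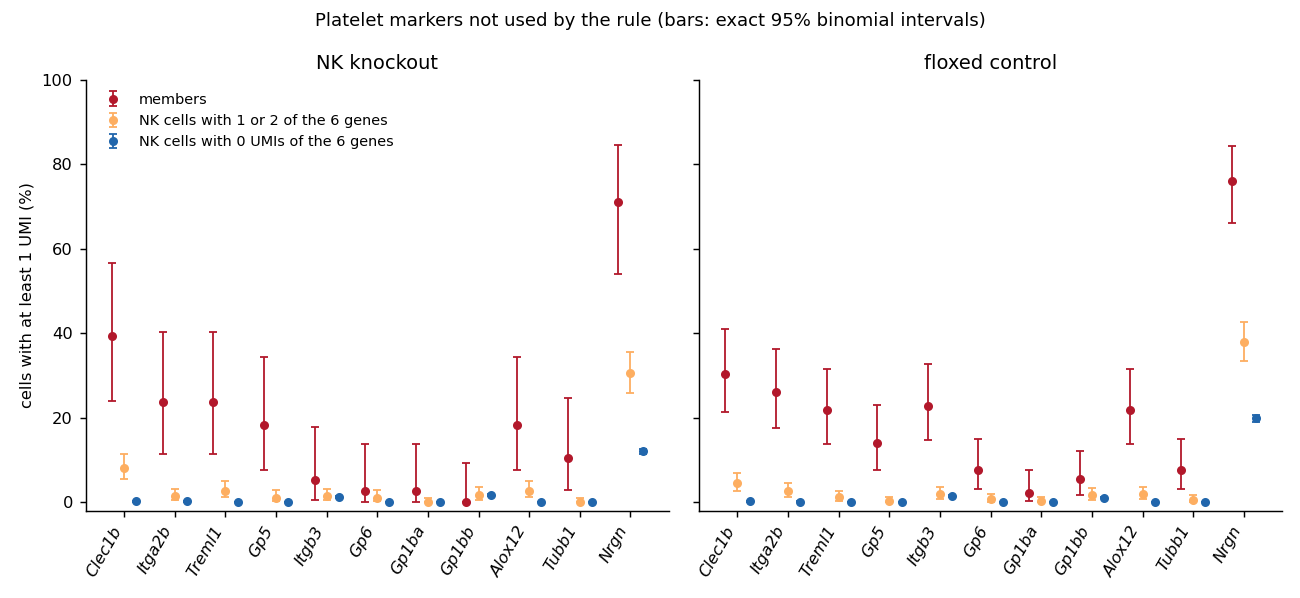
Share of cells with at least 1 UMI of Nrgn and of 10 of the 11 platelet markers that the rule did not use, NK knockout left and floxed control right, in members (red), NK cells with 1 or 2 of the 6 genes (orange) and NK cells with 0 UMIs (blue), with exact 95% binomial intervals. Members sit highest for Clec1b, Itga2b, Treml1, Gp5, Alox12 and Nrgn in both libraries, while Gp1bb was found in 0 knockout members.

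Genes of granule proteins were mostly low. Of 10 in the list, 8 had a UMI in members of either library, while Sparc and Timp3 had 0 UMIs in members of both. Thbs1, which encodes thrombospondin-1, had 11 UMIs in 7 knockout and 32 in 20 control members against 3 and 5 UMIs in all NK cells with 0 rule UMIs, for log2 ratios of 9.79 (7.87 to 12.27) and 9.36 (7.98 to 11.07). Vwf, von Willebrand factor, was found in 4 knockout and 10 control members, against 6 and 1 of the NK cells with 0 rule UMIs. F5, coagulation factor V, was found in 2 and 13 members and in 0 of the 9202 and 10197 cells, which by 3 counts allows shares of up to 0.0326% and 0.0294%. Mmrn1, the carrier protein of factor V, was found in 2 and 10 members against 0 and 2 cells. Selp, which encodes P-selectin, had 0 UMIs in knockout members and 2 in control members, a control log2 ratio of 0.71 (-2.35 to 2.59), so no difference was detectable at this depth. Pdgfb was carried by NK cells in general and had log2 ratios of -0.80 (-2.25 to 0.32) and 0.14 (-0.25 to 0.51).

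Of enzymes and cytosolic genes, Alox12, the platelet 12-lipoxygenase, had 12 UMIs in 7 knockout and 38 in 20 control members, with log2 ratios of 8.50 (7.09 to 10.00) and 8.76 (7.68 to 9.99). Nrgn, which encodes the calmodulin-binding protein neurogranin, had 88 UMIs in 27 knockout and 234 in 70 control members. NK cells with 0 UMIs also carried it, in 12.1% of knockout and 19.9% of control cells, and the log2 ratios were 3.59 (3.27 to 3.90) and 2.72 (2.53 to 2.91). Tubb1, the beta-tubulin of megakaryocytes and platelets, was found in 4 knockout and 7 control members against 0 and 1 cells. Pdlim1, a scaffold protein of the actin cytoskeleton, was called higher, at 1.08 (0.38 to 1.69) and 0.62 (0.26 to 0.97). Ptgs1, which encodes the cyclooxygenase that platelets use to make thromboxane, was found in 1 knockout and 5 control members, with log2 ratios of 0.87 (-4.44 to 3.38) and 1.77 (0.13 to 3.02).

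Genes shared between platelets and lymphocytes moved little. Of 13 such genes 12 were measured, with medians of 0.28 in the knockout and 0.25 in the control against -0.01 over all measured genes, and 1 was called. That gene was Rgs10, a regulator of G protein signalling, at 3.48 (2.88 to 4.03) and 3.79 (3.37 to 4.19), from 28 UMIs in 14 knockout and 58 in 33 control members. Tpm4, a tropomyosin gene, was at 1.05 (0.68 to 1.40) in the knockout and 0.36 (0.20 to 0.53) in the control. Of 6 nuclear factors of the megakaryocyte lineage 2 were measured and 0 called. Zfpm1, a cofactor of GATA1, stood at 104.5 against 61.6 CPM in the knockout and 82.0 against 91.9 CPM in the control. Mef2c stood at 92.2 against 80.3 CPM and 85.1 against 78.5 CPM. Nfe2 had 0 UMIs in knockout and 4 in control members. The other 3 were near 0: Gata1 had 1 UMI in knockout and 2 in control members, Tal1 1 and 1, and Gfi1b 0 and 1, with 0 UMIs of these 3 genes in NK cells with 0 rule UMIs of either library.

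The level of the other platelet genes went with the number of rule genes. In the knockout library the 11 markers summed to 9.25, 35.9, 115, 130, 677, 1404 and 1664 CPM in NK cells with 0, 1, 2, 3, 4, 5 and 6 rule genes. In the control library they summed to 5.24, 14.5, 79.9, 153, 372, 587 and 1941 CPM. The classes with 6 genes rested on few cells. In them, 16 of 25 marker UMIs in the knockout and 43 of 83 in the control lay in 1 cell. Several steps lay within the intervals. In the knockout library the intervals overlapped between 2 and 3 genes, at 83.6 to 154 and 69.3 to 223 CPM. They also overlapped there between 4 genes (370 to 1136 CPM) and 5 (993 to 1927 CPM), and between 5 and 6 (1077 to 2456 CPM). In the control library they overlapped between 4 and 5 genes, at 289 to 471 and 426 to 787 CPM. Over the same classes 31 NK receptor genes summed to 16556 CPM with 0 rule genes in the knockout and to 13511 CPM (11716 to 15503) in the 3 cells with 6. In the control the values were 16018 CPM and 14665 CPM (13540 to 15860).

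**Figure D3:**
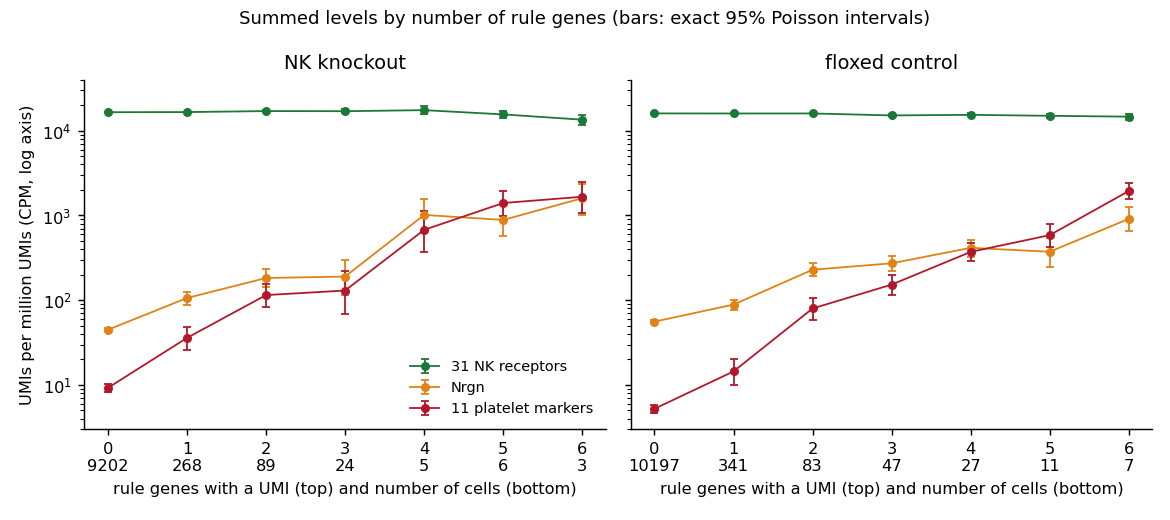
Summed level in CPM (log axis) of 31 NK receptor genes, Nrgn and 11 platelet markers against the number of rule genes with a UMI, NK knockout left and floxed control right, with exact 95% Poisson intervals and the number of cells under each class. The 11 markers run from 9.25 to 1664 CPM in the knockout and from 5.24 to 1941 CPM in the control, while NK receptors stay between 13511 and 17508 CPM in the knockout and between 14665 and 16018 CPM in the control. At 6 rule genes, 16 of 25 marker UMIs in the knockout and 43 of 83 in the control lay in 1 cell.

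Gng11 was the gene most often found alone. Of the 268 knockout and 341 control NK cells with 1 rule gene, 142 and 215 held Gng11 and 92 and 73 held Pf4. The 11 markers were found in 9.15% (4.97 to 15.1%) of knockout and 6.05% (3.26 to 10.1%) of control cells with Gng11 alone, and in 16.3% (9.42 to 25.5%) and 12.3% (5.80 to 22.1%) of those with Pf4 alone. The intervals overlap. Without Gng11, so that 3 of the other 5 genes were needed, 0.146% of knockout and 0.560% of control NK cells were members.

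Beyond the platelet lists, other genes stood higher in members. Those that are low in NK cells with 0 UMIs, such as Hist1h2bc at 12.5 and 10.9 CPM there, passed the 20 CPM limit through the members, so their values are given as a description. Tsc22d1, a gene induced by TGF-beta, had 51 UMIs in 24 knockout and 118 in 53 control members, with log2 ratios of 4.24 (3.80 to 4.65) and 2.97 (2.68 to 3.24). Hist1h2bc, a histone H2B gene whose RNA can be polyadenylated, had 29 UMIs in 17 and 53 in 38 members, with 3.83 (3.24 to 4.37) and 2.94 (2.51 to 3.34). Aldh2, mitochondrial aldehyde dehydrogenase, gave 1.98 and 2.29. Odc1, ornithine decarboxylase of polyamine synthesis, gave 2.20 and 1.41, and Lsm12 gave 1.85 and 1.41. Gatad1 was at 1.39 and 0.91, Pttg1ip at 1.04 and 0.87, and Rsu1 at 0.96 and 0.81. Itga6, which encodes a laminin receptor subunit, was at 1.33 (0.19 to 2.26) and 2.66 (2.33 to 2.98), but 42 of its 84 UMIs in control members lay in 1 cell, and without that cell the control value was 1.68. In cells thinned to 2000 UMIs the knockout value was -0.74.

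Lyz2 and Hba-a1, genes of other blood cells, also stood higher. Lyz2, a lysozyme gene of macrophages and monocytes, had 23 UMIs in 13 knockout and 54 in 35 control members, at most 4 in any member, with log2 ratios of 2.18 (1.52 to 2.78) and 4.39 (3.94 to 4.81). The macrophage genes C1qa, C1qb, Csf1r and Adgre1 stood at 24.6, 12.3, 0 and 0 CPM in knockout members against 18.7, 15.01, 6.96 and 2.26 CPM, and at 3.15, 3.15, 1.58 and 1.58 CPM in control members against 4.93, 4.36, 1.77 and 0.724 CPM. C1qc stood at 43.0 against 13.1 CPM in the knockout, from 7 UMIs in 1 member, and at 1.58 against 3.96 CPM in the control. The whole macrophage and monocyte list of 12 genes summed to 437 CPM against 349 CPM in the knockout and to 197 against 193 CPM in the control. Hba-a1, an alpha-globin gene, had 26 UMIs in 13 knockout and 37 in 21 control members, with log2 ratios of 2.67 (2.05 to 3.23) and 3.39 (2.86 to 3.88). The beta-globin gene Hbb-bs did not follow: it was found in 1 knockout and 6 control members, with log2 ratios of -0.92 (-2.54 to 0.30) and -0.12 (-1.44 to 0.93). Single cells weighed on the knockout comparison. Among knockout NK cells with 0 rule UMIs, 1 cell held 828 of the 2290 Hbb-bs UMIs, and 1 held 387 of the 991 Hba-a1 UMIs. In the control the most in 1 such cell was 72 of 779 and 29 of 361. The ratios without such cells were not computed. The erythroid list of 8 genes summed to 381 against 299 CPM in the knockout and 290 against 214 CPM in the control, with Slc4a1 at 0 in both sets of members. Of the 11788 UMIs of this list in knockout NK cells with 0 rule UMIs, 1541 lay in 1 cell.

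**Figure D4:**
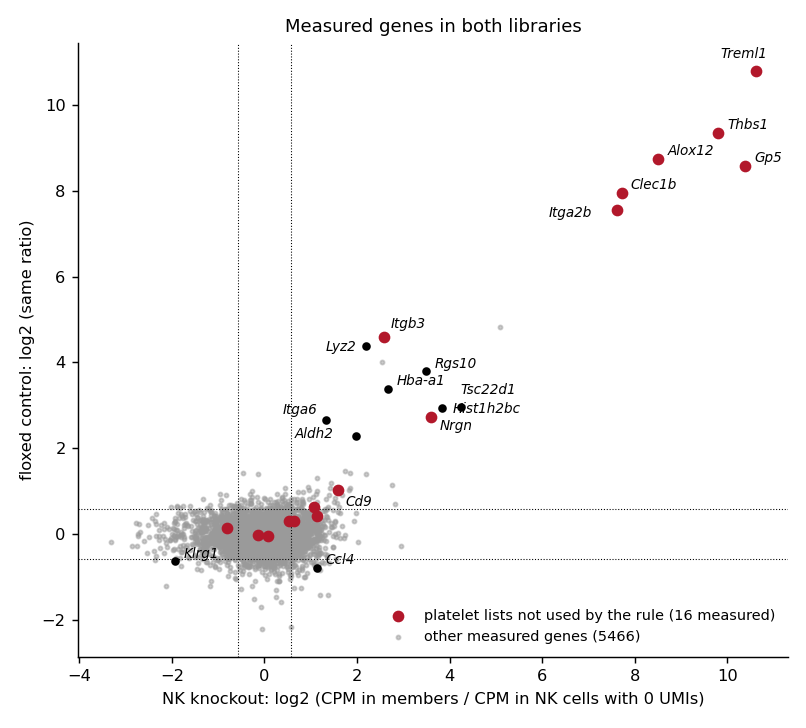
Log2 ratio of the level in members over that in NK cells with 0 UMIs, NK knockout on the x axis and floxed control on the y axis, for measured genes other than the 6 rule genes, with dotted lines at 0.58 and genes with 0 UMIs in a sum set at a floor of 3 counts. Platelet genes such as Treml1 (10.62 and 10.81) and Itga2b (7.61 and 7.56) lie at the upper right, and Nrgn, Rgs10, Tsc22d1, Lyz2 and Hba-a1 lie between them and the cloud around 0.

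Markers of other cells were counted over their whole lists. The neutrophil list of 8 genes had 1 UMI in knockout and 0 in control members, and the stromal list of 8 genes had 0 in both. The basophil and mast cell list of 6 genes had 1 UMI in knockout members and 2 in control members, 6.15 against 0.330 CPM and 3.15 against 0.246 CPM. Of 8 endothelial genes, Pecam1 alone had UMIs in knockout members (9), and Pecam1 and Plvap in control members, while Cdh5 and Kdr were at 0. Of 10 T cell genes, the list summed to 1008 against 817 CPM in the knockout and to 634 against 618 CPM in the control. In the knockout Cd3d stood at 30.7 against 27.6 CPM, Cd3e at 12.3 against 6.198, Cd3g at 67.6 against 45.8 and Trac at 30.7 against 12.98, from 1, 1, 3 and 3 members. In the control Cd3d stood at 3.15 against 15.2 CPM, Cd3e at 0 against 1.46, Cd3g at 15.8 against 16.5 and Trac at 7.88 against 7.76. Cd8a and Cd5 were at 0 in both sets of members and below 1 CPM in the NK cells with 0 UMIs. Of 8 B cell genes, the sums were 67.6 against 96.6 CPM and 137 against 116 CPM, mostly from Ighm, and Ms4a1 was at 0 in both sets of members. Of 10 dendritic genes, the sums were 105 against 148 CPM and 33.1 against 59.0 CPM. The part of any of these cells in the results was not tested.

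The summed NK receptor genes differed little. Of 31 NK receptor genes 30 were measured, 0 were called higher and 1 lower, with medians of -0.03 in the knockout and -0.07 in the control. Over all measured genes 1.22% were called higher and 0.565% lower, so counts of 0 or 1 in this and the following lists are near the background and say nothing particular to them. Summed, the receptors stood at 16514 against 16556 CPM in the knockout, a log2 ratio of -0.00 (-0.06 to 0.05), and at 15185 against 16018 CPM in the control, -0.08 (-0.11 to -0.05). Klrd1 was at -0.09 (-0.28 to 0.09) and -0.10 (-0.21 to 0.00). The gene called lower was Klrg1, an inhibitory receptor of mature NK cells that binds cadherins. It had 2 UMIs in 2 knockout members, 12.3 against 46.9 CPM, and 26 UMIs in 20 control members, 41.0 against 63.8 CPM, with log2 ratios of -1.93 (-4.98 to -0.08) and -0.64 (-1.25 to -0.08). With members defined by 2 or more rule genes the ratios were -0.28 and -0.42, short of the call, and in cells thinned to 2000 UMIs the control ratio was -0.38.

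Of 18 cytotoxic genes 14 were measured and 0 were called in either direction, with medians of 0.03 and -0.03. Gzma, granzyme A, stood at 8927 against 9498 CPM in the knockout and 7661 against 7915 CPM in the control, with log2 ratios of -0.09 (-0.16 to -0.02) and -0.05 (-0.09 to -0.01). Prf1 was at -0.26 (-0.58 to 0.03) and -0.09 (-0.25 to 0.06), and Gzmb, granzyme B, at -0.97 (-1.61 to -0.39) and -0.21 (-0.45 to 0.02).

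Of genes of mature NK cells, 11 of 12 were measured and 0 were called, with medians of -0.07 and -0.03. Of genes of immature NK cells, all 11 were measured and 0 were called, with medians of 0.19 and 0.11. Ctla2a, an inhibitor of cysteine proteases in the immature list, came nearest to a call: it stood at 2773 against 1569 CPM in the knockout and 1452 against 979 CPM in the control, with log2 ratios of 0.82 (0.68 to 0.96) and 0.57 (0.47 to 0.66). It had a UMI in 93.0% of knockout and 92.3% of control NK cells with 0 rule UMIs. The summed immature list was higher by 0.53 (0.42 to 0.63) and 0.30 (0.23 to 0.36) on the log2 scale. Ctla2a alone gave 451 of the 730 knockout and 921 of the 1928 control UMIs of that list in members. In NK cells with 0 rule UMIs it gave 61765 of 122443 and 63566 of 160254. The sum thus rests largely on 1 gene, and the list without Ctla2a was not summed. Of 14 transcription factors 13 were measured and 0 called, with medians of -0.17 and -0.06. Tbx21, the factor T-bet, was at -0.24 (-1.11 to 0.51) and -0.06 (-0.39 to 0.26).

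Of genes of receptors through which leukocytes can bind platelets, all 12 were measured and 0 were called, with medians of 0.08 and -0.01. Cd226, an adhesion receptor of the immunoglobulin family, was at 0.12 (-1.01 to 1.05) and 0.43 (-0.05 to 0.88), Icam2 at 0.47 (-0.53 to 1.32) and 0.11 (-0.43 to 0.60), and the integrin subunit gene Itgb1 at 0.27 (-0.04 to 0.56) and 0.08 (-0.05 to 0.20).

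Response genes had medians on both sides of 0. Of 14 measured immediate early genes, 8 interferon response genes, 10 heat shock genes, 9 division genes and 8 genes of TGF-beta receptors and targets, 0 were called. The TGF-beta genes had medians of 0.56 in the knockout and -0.24 in the control, and the interferon response genes had medians of -0.48 and 0.01. Of 8 chemokine and cytokine genes 6 were measured and 0 called. Ccl5 stood at 20374 against 21037 CPM in the knockout and 15565 against 16606 CPM in the control. Ccl4 was at 1.12 (0.73 to 1.49) in the knockout and -0.79 (-1.05 to -0.54) in the control, but 38 of its 60 UMIs in knockout members lay in 1 cell, and without that cell the knockout value was -0.29.

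**Figure D5:**
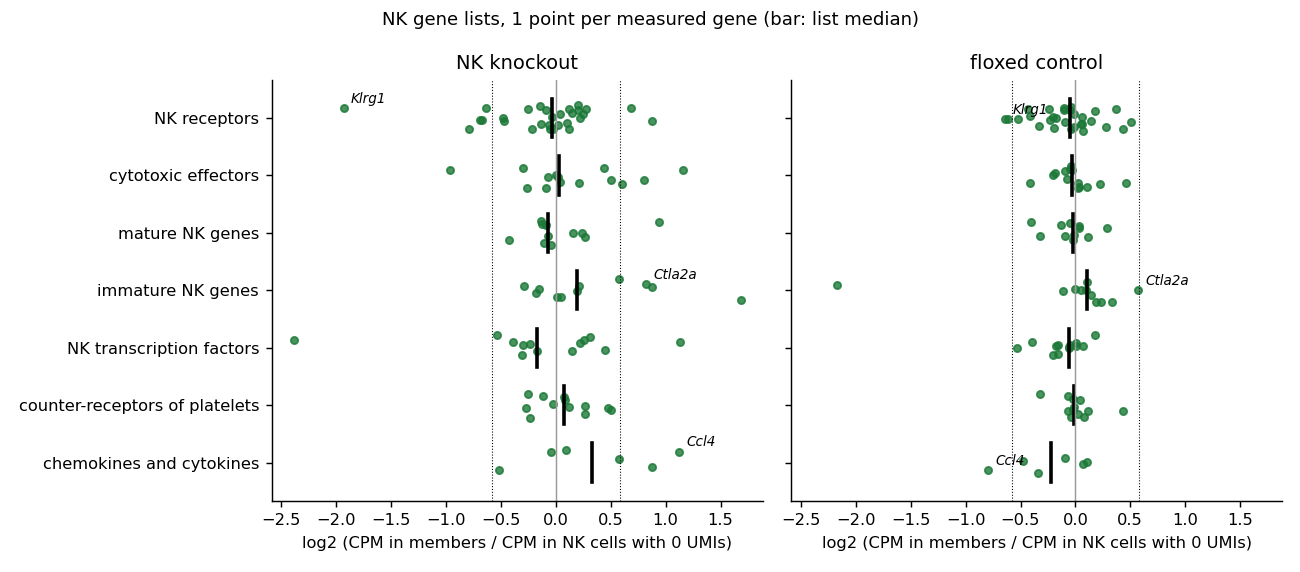
Log2 ratio of the level in members over that in NK cells with 0 UMIs for each measured gene of 7 lists, NK knockout left and floxed control right, with list medians as black bars and dotted lines at 0.58. Medians of NK receptors lie at -0.03 and -0.07, Klrg1 lies left of the line in both panels, and Ccl4 lies on opposite sides of 0.

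The share of NK cells that were members was 0.396% (0.280 to 0.543%) in the knockout library and 0.859% (0.693 to 1.05%) in the control library at full depth. After each cell was thinned to 2000 UMIs it was 0.202% (19 of 9428 cells) in the knockout and 0.208% (22 of 10590) in the control. The intervals of the thinned shares, 0.121 to 0.315% and 0.130 to 0.314%, overlap almost wholly. Thinning left out 166 knockout and 122 control NK cells with 0 UMIs, and 0 and 1 members.

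Between genotypes, ratios in members were close to those in other NK cells for the 3 genes Wls, Cirbp and Itga4. These 3 were named after their values were seen, and not every list behaved this way. The deleted gene Ptger3 had 0 UMIs in members of both libraries, which by 3 counts allows a share of up to 7.89% in the knockout and 3.26% in the control, and 3' tags need not lie in the deleted part. Among NK cells with 0 rule UMIs it was found in 0 knockout cells, which by 3 counts allows up to 0.0326%, and in 0.147% of control cells. The log2 ratio of knockout over control was 3.64 in members and 3.49 in NK cells with 0 UMIs for Wls, 2.23 and 2.33 for Cirbp, and -1.17 and -1.18 for Itga4. The heat shock list was at -1.14 (-1.30 to -0.98) in members and -1.27 (-1.28 to -1.26) in the others, and NK receptors at 0.12 (0.06 to 0.18) and 0.05 (0.04 to 0.05). Immature NK genes were at 0.56 (0.44 to 0.69) in members and 0.33 (0.32 to 0.34) in the others. The TGF-beta list was at 0.38 (0.01 to 0.73) and -0.24 (-0.27 to -0.21). Of the platelet genes not used by the rule, the 11 markers stood at 553 CPM in knockout and 388 CPM in control members, a log2 ratio of 0.51 (0.15 to 0.87), which is 2.37 and 2.67 UMIs per member cell. Per member cell the values lay in the opposite order to those in CPM. In NK cells with 0 UMIs the 11 markers stood at 9.25 CPM in the knockout and 5.24 CPM in the control. The log2 ratio there was 0.82 (0.60 to 1.04), so for these 11 markers the higher knockout level in CPM was not particular to members. Not all platelet genes followed: Nrgn was at 0.55 (0.18 to 0.91) in members and -0.32 (-0.40 to -0.23) in NK cells with 0 UMIs. The receptor list was at 0.49 and -0.14, the granule list at -0.15 and -0.43, and the cytosol list at 0.05 and -0.47. Knockout cells held fewer UMIs, and genotype, library and depth cannot be told apart.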

How the data were processed

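The deposited matrices hold raw counts, whole numbers of UMIs per gene and barcode, with no normalization. The labels name STAR, Cell Ranger 3.0.0, Seurat and the build GRCm39, and the deposited file headers name software version 3.0.0. Every deposited barcode held at least 500 UMIs. Here UMIs were summed per library over members and over NK cells with 0 UMIs of the 6 rule genes, and divided by all UMIs of the sum (CPM). Intervals of ratios are exact at 95%, from the binomial share of a gene's UMIs that fell in members, and a sum of 0 is set at a floor of 3 counts. With 1 library per genotype no p-value was made. Doublets were neither called nor taken out. In all 33 barcode sequences occurred in both libraries, 1 of them as a knockout member.

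The members and the 29 gene lists were chosen with earlier results of these data known. Named genes were the 6 platelet and 3 NK genes of the rule, Ptger3, and among genes of at least 50 CPM (without the rule genes, mitochondrial, ribosomal protein, predicted, antigen receptor and sex-specific genes) the 15 called higher and the 15 called lower with the largest smaller ratio of both libraries. Up to 4 genes of each list with the largest such ratio were added. Of 2683 candidates 20 were called higher and 0 lower. Other members of a list, Wls, Cirbp and Itga4, and Klrg1 as the only gene called lower with both intervals, were named after their values were seen. Alternatives were other scalings, depths, filters and numbers of rule genes. The steps were tested on simulated data with scipy 1.17.1, numpy 2.4.6 and pandas 2.3.3 in Python 3.11.15, and plots were drawn with matplotlib 3.10.9. Some genes of the lists are summed with them and are not reported singly here.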

Additional observations from a re-analysis of the deposited data

Results flagged for a closer look

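Ccl4, a chemokine gene, had opposite signs in the libraries: the log2 ratio of members over NK cells with 0 UMIs was 1.125 in the knockout and -0.792 in the control. This difference between the libraries was not tested. Without the 1 knockout member that held 38 of the 60 UMIs the knockout value was -0.29.

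Barcodes outside the comparison also held rule genes. Among barcodes left out by the quality limits, 11 of 592 in the knockout (1.858%) and 12 of 857 in the control (1.4%) held 3 or more of the 6 genes, at median depths of 719 and 799 UMIs. Among barcodes with 0 UMIs of Ncr1, Klrb1c and Klrk1, 4 of 317 in the knockout (1.262%, interval 0.345 to 3.20%) and 0 of 144 in the control held 3 or more, and by the rule of 3 counts the 0 allows a share of up to 2.08%. The shares in NK cells were 0.396% and 0.859%.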

How the results depend on the processing

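The counts of genes called moved with the settings. Against 67 genes higher and 31 lower, there were 231 and 161 in cells thinned to 2000 UMIs, 221 and 81 with at least 4 rule genes, 27 and 5 with at least 2, 26 and 0 among genes of at least 50 CPM, 334 and 160 among genes of at least 5 CPM, and 39 and 1 where both intervals had to exclude 0. The summed log2 ratio of the 11 platelet markers was 7.05 in the knockout and 6.95 in the control with at least 4 rule genes, 4.73 and 5.54 with at least 2, and 5.94 in the control when thinned. The median of NK receptors was -0.11 in the knockout with at least 4 rule genes and -0.10 in the control when thinned. The median of cytotoxic genes was 0.13 (thinned) and 0.16 (at least 4 rule genes) in the knockout, and in the control -0.072 with at least 2 rule genes and 0.00033 with at least 1000 genes and at most 5% mitochondrial UMIs. The share of members was 0.202% in the knockout and 0.208% in the control when thinned, 1.32% and 1.63% with at least 2 rule genes, 0.146% and 0.420% with at least 4, and 0.146% and 0.560% with 3 of the 5 genes other than Gng11. Itga6 in the knockout changed sign when thinned, to -0.74. The cause was not tested. Of 1750 values of single genes 1623 stayed within their interval, 126 moved and 1 changed sign. Of 220 list medians 182 stayed. The interval rule, the setting without Gng11, leaving out the member with most UMIs of a gene, and leaving out cells with 3 or more C1q, CD3 or B cell receptor complex UMIs were chosen after seeing the data. Leaving out cells with 2 or more UMIs of other cell type lists was not run, since it left 1 knockout and 7 control members. No paired analysis was possible because there is 1 library per genotype.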

Other observations

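Some genes called higher in members were in no list and below the level set for naming. The 2 named next passed the 20 CPM limit only through the members, so their values are a description and being called supports nothing. Prkar2b, a regulatory subunit of protein kinase A, had 8 UMIs in knockout and 24 in control members, at log2 ratios of 5.09 and 4.82. Cd81, a tetraspanin like Cd9, had 7 UMIs in knockout and 19 in control members, at 2.54 and 4.02. Of the 67 genes called higher, 48 were in no list, and of the 31 called lower, 30. Il7r, the interleukin-7 receptor subunit, stood at 117 against 78.4 CPM in the knockout, and at 7.88 against 35.5 CPM in the control, from 19 and 5 UMIs in members. These genes were chosen after their values were seen.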
